A study of Mus musculus with 67 samples.

Results

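Transcripts of 10 glycolysis enzymes were followed from the 2-cell embryo to the blastocyst in control mouse embryos and in embryos exposed to light. The members were chosen by symbol, Hk1, Hk2, Gpi1, Pfkl, Pfkp, Aldoa, Gapdh, Pkm, Ldha and Ldhb, and all 10 were found among the 26414 genes of the deposited table. The 67 libraries were made by SMART-seq2 from single cells picked from C57BL/6 embryos, per the study's methods, while the labels name each library an embryo, and n counts libraries and not embryos. The embryos came from in vitro fertilization, with females of 6 weeks and males of 10 weeks of age. The light group (34 libraries) was lit as 2-cell embryos for 6 h with 5000 lx and then cultured in the dark, and the control group (33 libraries) is labelled as such. There were 7 control and 6 light libraries of 2-cell embryos, 6 and 8 of 4-cell embryos, 4 and 8 of 8-cell embryos, 13 and 6 of morulae and 3 and 6 of blastocysts. Levels are given as CPM, counts per 1000000 reads outside 2 rows that hold ribosomal RNA, and differences are given as log2(CPM + 1) with the standard error (SE). A difference was called at an adjusted p under 0.05 and a fold of at least 2 by limma, with Benjamini-Hochberg adjustment over all genes tested.

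Glycolysis splits glucose into pyruvate through a chain of cytosolic enzymes, and lactate dehydrogenase converts pyruvate and lactate into each other. Hexokinases open the chain, phosphofructokinases hold its main control step, and several steps are served by isozymes from separate genes. The early mouse embryo is known to live on pyruvate and lactate and to take up glucose in quantity only near the morula and blastocyst stages.

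The libraries differed in more than their labels. Total reads per library lay between 836015 and 8551673, of which 54.0% to 89.3% fell on the rows Gm42418 and CT010467.1, and the members together received 175 to 5614 reads. One read was worth 0.349 to 3.14 CPM, so a level of a few CPM rests on a few reads. Gm42418 reads per CT010467.1 read did not overlap between the groups in 2-cell (2.34 to 4.03 against 1.58 to 1.77), 8-cell (2.01 to 2.34 against 1.52 to 1.71) and morula libraries (2.34 to 4.14 against 1.49 to 1.67), so a difference in library making and the light treatment cannot be told apart there. Within control this ratio also did not overlap between morulae (2.34 to 4.14) and blastocysts (1.42 to 1.45). A difference in library making and the step from morula to blastocyst thus cannot be told apart in control. In light these stages overlapped (1.49 to 1.67 against 1.29 to 1.75). At the 4-cell stage the ratio was 4.55 and 4.35 in control libraries 1 and 2, and 1.61, 1.89, 1.98 and 1.80 in control libraries 3 to 6. Light 4-cell libraries stood at 1.43 to 1.63, so of the controls only library 3 lay within their range. No control 4-cell library lay within the range of control 2-cell or control 8-cell libraries. The part of library making in the control steps to and from the 4-cell stage was not tested. More than 3 reads on 4 Y-linked genes were found in 0 of 4 control 8-cell, 0 of 13 control morula and 0 of 3 control blastocyst libraries, against 4 of 8, 1 of 6 and 6 of 6 light libraries. Whether libraries of a group share embryos was not tested, so p-values measure the spread between libraries only, and Y-linked expression and light cannot be told apart at the blastocyst stage. By rank correlation over 22861 genes, 22 libraries lay closer to another group than to their own, among them control 4-cell library 3. Of the 22, 9 lay closest to a group of another stage. Control 8-cell libraries 2, 3 and 4 and light 8-cell libraries 6, 7, 8, 9 and 12 lay closest to light 4-cell libraries. Control morula library 26 lay closest to control 4-cell libraries.

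The isozyme pairs differ in the letters before their transcription starts. These windows are shown for Hk1 and Hk2, which followed different courses over the stages. They are also shown for Ldha and Ldhb, of which limma called changes for Ldhb alone. The 250 bases before the RefSeq start on GRCm38.p6 are printed 5′ to 3′ in the direction of the gene, with the letters ACGTG and GGGCGG in capitals on either strand. ACGTG is the core that E-box and hypoxia response elements share, and GGGCGG is the GC box. The outer of 2 starts was taken for Hk1 (chr10:62379909-62380158, minus strand) and Ldha (chr7:46845554-46845803, plus strand), and the only start for Hk2 (chr6:82774455-82774704, minus strand) and Ldhb (chr6:142507958-142508207, minus strand).
Hk1: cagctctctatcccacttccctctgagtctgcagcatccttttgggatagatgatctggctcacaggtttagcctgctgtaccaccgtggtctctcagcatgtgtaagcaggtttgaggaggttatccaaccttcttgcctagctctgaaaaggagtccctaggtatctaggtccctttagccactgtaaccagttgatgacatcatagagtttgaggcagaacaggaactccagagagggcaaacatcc
Hk2: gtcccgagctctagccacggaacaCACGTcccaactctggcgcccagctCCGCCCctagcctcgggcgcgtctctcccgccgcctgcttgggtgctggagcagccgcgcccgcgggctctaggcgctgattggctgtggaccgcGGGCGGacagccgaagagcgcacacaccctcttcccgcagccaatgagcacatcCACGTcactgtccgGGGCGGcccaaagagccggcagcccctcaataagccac
Ldha: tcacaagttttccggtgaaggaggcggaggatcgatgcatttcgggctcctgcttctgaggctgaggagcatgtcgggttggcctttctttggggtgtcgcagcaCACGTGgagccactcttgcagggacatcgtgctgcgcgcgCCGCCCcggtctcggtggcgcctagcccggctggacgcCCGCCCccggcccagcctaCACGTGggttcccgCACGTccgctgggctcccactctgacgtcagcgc
Ldhb: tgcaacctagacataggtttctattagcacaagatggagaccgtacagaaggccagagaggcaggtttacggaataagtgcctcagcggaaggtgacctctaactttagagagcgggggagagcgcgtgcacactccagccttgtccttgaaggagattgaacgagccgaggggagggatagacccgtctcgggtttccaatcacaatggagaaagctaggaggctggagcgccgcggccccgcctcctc
The Hk2 window held ACGTG 2 times and GGGCGG 3 times, and the Ldha window held them 5 and 2 times, where the palindrome CACGTG counts on both strands. The Hk1 and Ldhb windows held neither, and neither did the windows of the inner starts of Hk1 and Ldha. Of the pair not printed, the Pfkl window held neither and the Pfkp window held GGGCGG 4 times. ACGTG was present in 16.6% and GGGCGG in 32.7% of 32851 such windows of all genes, and in 5 and 7 of the 15 windows of the 10 members, which overlap in part for Aldoa. A match of letters does not show that a factor binds there.

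The first question of the design was whether light changed the members within a stage. At the 2-cell stage 2 of 10 members were called, Aldoa and Pkm, both higher in light, beside 12.0% of all genes tested. At the 8-cell stage 1 of 10 was called, Gapdh, lower in light, beside 8.49% of all genes. Both counts are near the share of all genes. No member was called at the 4-cell stage (2.15% of all genes), the morula stage (1.59%) or the blastocyst stage (1.90%) by limma, where 0, 3 and 2 members had an unadjusted p under 0.05, edgeR called 0, 1 and 0 and DESeq2 called 0, 2 and 0. No member was without overlap between light and control before the blastocyst, beside 4.81%, 0.819%, 5.61% and 0.513% of all genes from the 2-cell stage to the morula. The median difference over the 10 members was, from the first stage to the last, 0.86, 0.08, 0.27, 0.46 and 0.50. For all genes tested the medians were 0.05, 0.17, 0.08, 0.25 and -0.04.

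**Figure D1:**
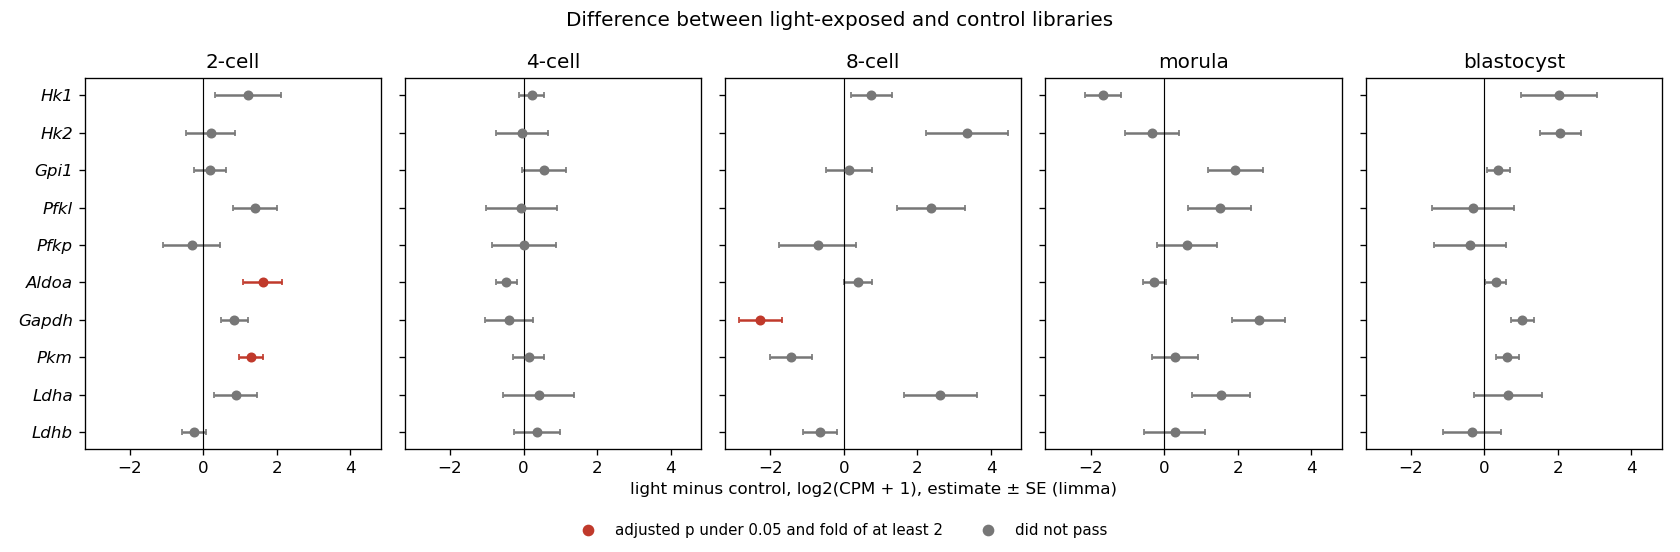
Difference between light and control libraries for each member (light minus control, log2(CPM + 1), points with SE as bars, limma) in 1 panel per stage. Red points mark the called members, Aldoa and Pkm at the 2-cell stage and Gapdh in 8-cell libraries, and the wide bars there stand for groups of 4 and 8 libraries.

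The second question was how the members changed from stage to stage in each group. From the 2-cell to the 4-cell stage 3 members were called in control (Hk1 and Aldoa higher, Ldhb lower; 47.9% of all genes) and 5 in light (Hk1 and Aldoa higher, Pfkl, Pkm and Ldhb lower; 35.1%). Between the 4-cell and 8-cell stages limma called 0 members in control (1.86% of all genes) and 0 in light (2.39%), with 1 and 4 members at an unadjusted p under 0.05 and no member called by edgeR or DESeq2. From the 8-cell stage to the morula 3 members were called in control (Hk2 and Aldoa higher, Ldhb lower; 15.2%) and 2 in light (Gapdh higher, Ldhb lower; 10.6%). From the morula to the blastocyst 4 were called in control (Gpi1, Aldoa and Gapdh higher, Hk1 lower; 13.2%) and 5 in light, all higher (Hk2, Gpi1, Aldoa, Gapdh and Pkm; 13.3%). The counts stood farthest above the share of all genes at this last step, while 3 of 10 at the first step in control stood below it. Because the members were chosen with earlier results of these data known, these counts describe the members and do not test them. The levels of 5 and 4 members did not overlap between morula and blastocyst libraries in control and light, beside 8.77% and 6.22% of all genes, and those of 3 and 3 between 2-cell and 4-cell libraries, beside 21.9% and 12.6%. Between 4-cell and 8-cell libraries 0 members were without overlap in control (4.63% of all genes) and 0 in light (0.580%), and between 8-cell and morula libraries 0 in control (5.84%) and 1, Ldhb, in light (3.68%). Summed over the 10 members, the level was 388 to 806 CPM in control 2-cell libraries and 2291 to 2617 CPM in control blastocyst libraries, and 564 to 1141 CPM and 3084 to 4505 CPM in light. The blastocyst libraries did not overlap with the earlier stages in this sum.

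**Figure D2:**
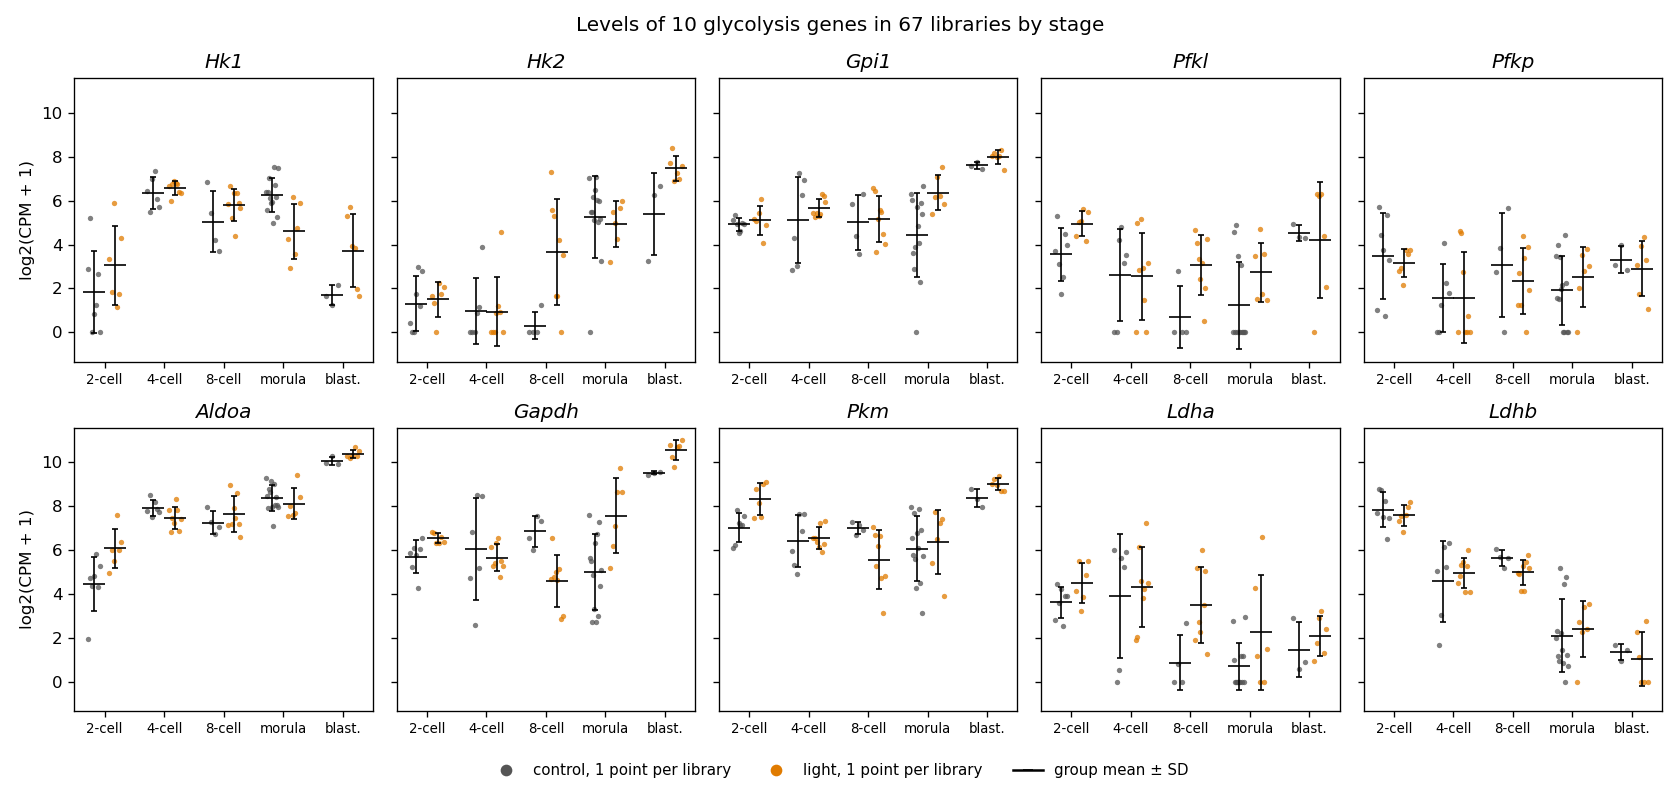
Level of each of the 10 members as log2(CPM + 1) in all 67 libraries, by stage, with control in grey, light in orange and the group mean ± SD in black. Aldoa and Gapdh are highest in blastocysts, Ldhb is highest at the 2-cell stage and lowest in blastocysts, and Hk2 is near 0 in most libraries before the 8-cell stage.

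Hexokinase phosphorylates glucose and keeps it in the cell, and its isozymes Hk1 and Hk2 followed different courses. Hk1, the widely expressed form, stood at a lowest, median and highest level of 0, 1.38 and 35.7 CPM in the 7 control 2-cell libraries and 44.4, 76.0 and 162 CPM in the 6 control 4-cell libraries. The groups did not overlap, and Hk1 rose by 4.52 (SE 0.75, adjusted p = 4.82e-05). In light the levels were 1.23, 5.88 and 57.9 CPM at the 2-cell stage and 61.4, 103 and 119 CPM at the 4-cell stage, again without overlap, and the rise was 3.52 (SE 0.54, adjusted p = 1.22e-05). Hk1 then stayed between 12.1 and 113 CPM in control 8-cell libraries and between 30.5 and 186 CPM in control morulae. In the 3 control blastocyst libraries it stood at 2.15, 1.40 and 3.50 CPM, below every control morula, and fell by 4.57 (SE 0.58, adjusted p = 6.81e-06). Light blastocysts held more of it in some libraries, at 38.3, 50.7, 14.2, 13.2, 2.90 and 2.15 CPM in the order of the library numbers, and overlapped with light morulae at 6.71 to 71.5 CPM. The difference from morula to blastocyst in light was -0.87 (SE 0.75, adjusted p = 0.483), and the light effect on Hk1 differed between the stages by 3.70 (SE 0.99, adjusted p = 0.0436), 1 of 10 members called in that test beside 1.50% of all genes. This call was lost on the deposited scale (adjusted p = 0.0790) and without any of 17 of the 28 libraries. In morulae Hk1 was 87.5 ± 50.1 CPM in control (SD, n = 13) and 31.9 ± 26.7 CPM in light (n = 6), a difference of -1.67 (SE 0.49) that missed the threshold (adjusted p = 0.0704, 0.0414 to 0.502 over 10 alternatives) and was called by DESeq2 (0.0414).

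Hk2, the form typical of muscle, fat and growing cells, was near the floor in most libraries up to the 4-cell stage in both groups and up to the 8-cell stage in control. Its highest level was 6.91 CPM over all 2-cell libraries of both groups, and at the 4-cell stage 12 of 14 libraries stood at 1.32 CPM or lower. The control 8-cell libraries stood at 0, 0, 0 and 1.35 CPM. The light 8-cell libraries stood at 0, 14.0 and 155 CPM (lowest, median and highest), with 7 of 8 above every control library. The groups overlapped through a single light library at 0, and the difference of 3.34 (SE 1.12) missed the threshold by limma (adjusted p = 0.0622). It was called by edgeR (0.0287), DESeq2 (0.00137) and 1 fit over all 10 groups (0.0129), within a range of 0.00137 to 0.117 over 9 alternatives. Control 8-cell libraries also held 40.5 to 284 CPM of 2-cell stage marker genes, against 0.894 to 90.4 CPM in light, and 6.05% to 8.20% mitochondrial reads against 2.91% to 5.09%, and the part of either in this result was not tested. In control morulae Hk2 stood at 0, 44.4 and 135 CPM, and the rise from the 8-cell stage was 4.95 (SE 0.93, adjusted p = 0.000536). In light the difference between the 4-cell and 8-cell stages was 2.70 (SE 0.89, adjusted p = 0.0935), which was called without light 4-cell library 13 (0.0399) or light 8-cell library 11 (0.0405). Light morulae stood at 8.15, 37.4 and 61.9 CPM, and Hk2 rose to 117, 172 and 334 CPM in light blastocysts without overlap (2.55, SE 0.44, adjusted p = 0.000215).

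In blastocysts Hk2 stood at 8.58, 76.5 and 102 CPM in the 3 control libraries, in the order of their numbers, and above 102 CPM in each of the 6 light libraries. The groups did not overlap, which held for 2 of 10 members (Hk2 and Gapdh) beside 7.21% of all genes. The difference of 2.07 (SE 0.56) missed the threshold (adjusted p = 0.0618, 0.0618 to 0.416 over 9 alternatives), and it was 0.99 (adjusted p = 0.434) without control library 1 and 1.26 (0.246) on the deposited scale. Without control library 2 or 3 it was called, at 2.50 (0.0470) and 2.70 (0.00703). Marker genes of the embryo's lineages moved with these libraries. The summed level of 10 trophectoderm genes was 1012, 4705 and 9338 CPM in control libraries 1, 2 and 3, and 10791 to 15068 CPM in light, where all 10 were detected. That of 8 inner cell mass genes was 4475, 2456 and 410 CPM in control and a median of 496 CPM in light. Control library 1, lowest in Hk2, was thus lowest in trophectoderm and highest in inner cell mass genes, and the part of lineage in the difference was not tested. The plot of members against trophectoderm markers shows the same libraries.

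**Figure D3:**
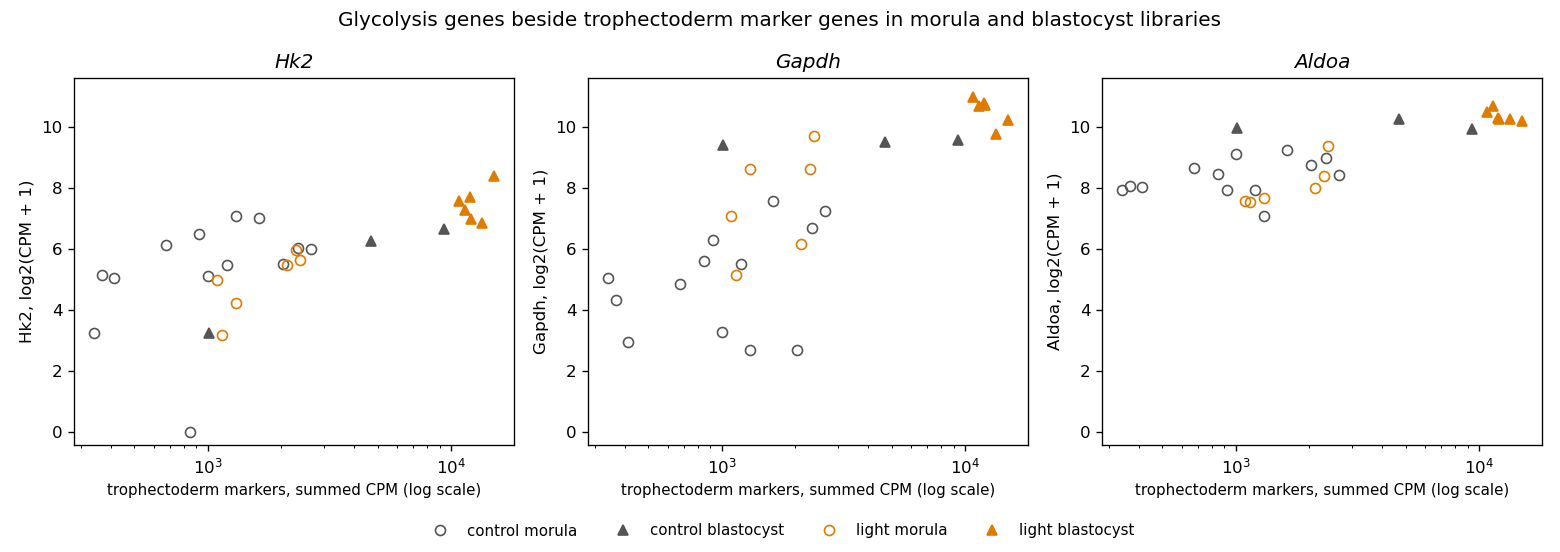
Level of Hk2, Gapdh and Aldoa as log2(CPM + 1) against the summed CPM of 10 trophectoderm marker genes on a log scale, with 1 point per library, circles for morulae, triangles for blastocysts, grey for control and orange for light. The 6 light blastocyst libraries lie at 10791 to 15068 CPM of markers, and the 3 control blastocyst libraries are spread from 1012 to 9338 CPM, where Gapdh is 690 to 758 CPM and Aldoa 975 to 1242 CPM.

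Gpi1, the isomerase that turns glucose-6-phosphate into fructose-6-phosphate, was higher in blastocysts than in morulae in both groups. Control libraries held 29.9 ± 6.21 CPM (SD, n = 7) at the 2-cell stage, 64.0 ± 63.3 (n = 6) at the 4-cell stage, 41.1 ± 30.9 (n = 4) at the 8-cell stage, 36.2 ± 31.7 (n = 13) in morulae and 194 ± 19.7 (n = 3) in blastocysts. The highest control morula stood at 99.7 CPM and the 3 blastocysts at 193, 214 and 175 CPM, a rise of 3.17 (SE 1.01, adjusted p = 0.0398). This call was lost in 5 of 10 alternatives, among them edgeR (0.0523) and the replicate block, which rests on 2 shared numbers. It was also lost without control morula 6 (0.0513) or 9 or blastocyst 1 (0.132), 2 (0.144) or 3 (0.125). Light libraries held 36.7 ± 17.1, 51.9 ± 16.8, 44.0 ± 30.7, 93.0 ± 53.7 and 257 ± 50.6 CPM over the same stages (n = 6, 8, 8, 6 and 6). The rise from morula to blastocyst in light was 1.61 (SE 0.35, adjusted p = 0.00212), with overlap of light morula 9 (182 CPM) and light blastocyst 29 (165 CPM). The light call was lost on the deposited scale (0.104) and in 1 fit over all 10 groups (0.102). Control and light morulae overlapped, and their difference of 1.94 (SE 0.74) did not pass (adjusted p = 0.155).

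Phosphofructokinase commits sugar to glycolysis, and its isozymes among the members, Pfkl and Pfkp, were sparse in these libraries. Pfkm is not a member and is read with the other glycolysis enzymes. Pfkl, the liver type, stood at 2.37, 12.0 and 38.6 CPM (lowest, median and highest) in control and 16.8, 31.9 and 48.0 CPM in light 2-cell libraries, a difference of 1.41 (SE 0.59) that did not pass (adjusted p = 0.114). In light it fell by 2.39 (SE 0.73, adjusted p = 0.0107) to 0, 6.34 and 34.4 CPM at the 4-cell stage, with overlap, a call that edgeR (0.177) and DESeq2 (0.146) did not make. It was listed at 0 in 3 of 4 control 8-cell and 9 of 13 control morula libraries, but in no light library of these stages. Light 8-cell library 10 and light morula 12 held 1 read each. The highest level was 5.94 CPM in control and 24.7 CPM in light 8-cell libraries, and 28.7 CPM in control and 24.8 CPM in light morulae. The differences between light and control at these stages, 2.36 (SE 0.93, adjusted p = 0.114) and 1.51 (SE 0.87, adjusted p = 0.370), did not pass. In blastocysts the 3 control libraries held 30.0, 19.1 and 18.4 CPM, within the light range of 0 to 77.9 CPM. Pfkp, the platelet type, was not called by limma in any of the 17 comparisons. DESeq2 called it lower in control at the 4-cell than at the 2-cell stage (adjusted p = 0.0332), where the limma difference was -1.92 (SE 0.88, adjusted p = 0.0767). Its group means lay between 3.93 CPM (control, 4-cell) and 19.2 CPM (control, 2-cell), with libraries at 0 in 6 of the 10 groups.

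Aldoa, which splits fructose-1,6-bisphosphate into 2 triose phosphates, was called at 5 of the 8 steps between stages, more than any other of the 10. At the 2-cell stage control libraries held 2.82, 25.4 and 54.6 CPM and light libraries 29.7, 63.1 and 190 CPM. The groups overlapped, and Aldoa was higher in light by 1.62 (SE 0.53, adjusted p = 0.0403). This call is close to the threshold, since it was lost on the deposited scale (0.0743), with a pseudocount of 0.1 (0.0537), with no filter on low values (0.0746) and without any of 7 of the 13 libraries, over a range of 0.00157 to 0.558. Aldoa rose to the 4-cell stage in control, to 182, 223 and 365 CPM without overlap (3.47, SE 0.51, adjusted p = 1.04e-05), and in light, to 111, 172 and 313 CPM with overlap (1.39, SE 0.34, adjusted p = 0.00203). The light effect at the 4-cell stage stood below that at the 2-cell stage by 2.08 (log2 difference -2.08, SE 0.62, adjusted p = 0.0463), 1 of 10 members called beside 4.06% of all genes. That call was lost in 5 of 10 alternatives, with control 4-cell libraries 1 and 2 left out among them (0.0705), and without any of 19 of the 27 libraries. At the next steps control libraries held 158 ± 62.0 CPM (SD, n = 4) at the 8-cell stage and 355 ± 143 CPM (n = 13) in morulae, a rise of 1.12 (SE 0.34, adjusted p = 0.0245) that was lost without control 8-cell library 2, 3 or 4. In blastocysts Aldoa reached 1002, 1242 and 975 CPM in control and 1171 to 1660 CPM in light, above every morula of its group, with rises of 1.70 (SE 0.35, adjusted p = 0.00176) and 2.27 (SE 0.28, adjusted p = 2.43e-06).

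Gapdh, the dehydrogenase of glyceraldehyde-3-phosphate that is often taken as a reference gene, was lower in light than in control at the 8-cell stage and stood higher in light in morulae, where the call depended on the tool. The 4 control 8-cell libraries stood at 93.0, 63.1, 183 and 158 CPM, in the order of their numbers. The light libraries stood at 6.13, 25.6 and 92.2 CPM, and 7 of the 8 lay below every control library. Gapdh was lower in light by 2.27 (log2 difference -2.27, SE 0.59, adjusted p = 0.0181), a call kept in all 9 alternatives (0.00570 to 0.0361) and lost without control library 3 (0.0677) or 4 (0.0572). In morulae the direction was the opposite, with 5.47, 32.6 and 192 CPM in control and 34.6, 263 and 842 CPM in light. The groups overlapped, and the difference of 2.57 (SE 0.73) missed the threshold by limma (adjusted p = 0.0631) but was called by edgeR (0.0361), DESeq2 (0.0130) and 1 fit over all groups (0.00330), over a range of 0.00330 to 0.560. The light effect in morulae stood above that at the 8-cell stage by 4.83 (SE 1.08, adjusted p = 0.00732), 1 of 10 members called beside 2.41% of all genes, in all 9 alternatives and without each of the 31 libraries. For the 8-cell against the 4-cell stage limma called 0 members (4.78% of all genes), with 2 at an unadjusted p under 0.05 and 0 called by edgeR and by DESeq2. Light 8-cell libraries differed from control also in mitochondrial reads and 2-cell stage markers, as given for Hk2, and the part of these in the Gapdh result was not tested.

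Within light, Gapdh rose from the 8-cell stage to the morula by 2.98 (SE 0.61, adjusted p = 0.00161) and again to the blastocyst by 2.97 (SE 0.49, adjusted p = 0.000112). In control it rose at the last step only, by 4.51 (SE 0.90, adjusted p = 0.00121), to 690, 730 and 758 CPM, above the highest control morula at 192 CPM. The light blastocysts stood at 878, 1683 and 2026 CPM, above all 3 controls. That difference of 1.03 (SE 0.32) did not pass (adjusted p = 0.0958), and on the deposited scale, where the median of all genes was -0.59 against -0.04 here, it was 0.26 (0.726). At the 4-cell stage the control libraries spread widely, at 4.98, 72.7 and 358 CPM, around the light libraries at 26.5, 42.7 and 91.2 CPM, and the difference was -0.39 (SE 0.66, adjusted p = 0.795).

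Pkm encodes the pyruvate kinase that ends the chain and yields ATP, and it was higher in light at the 2-cell stage. Control libraries held 66.7, 140 and 224 CPM and light libraries 177, 355 and 541 CPM. The groups overlapped, and Pkm was higher in light by 1.31 (SE 0.33, adjusted p = 0.00762). It was called without each of the 13 libraries (0.00464 to 0.0239) and lost in 1 fit over all 10 groups (0.107). The sum of 7 maternal oocyte genes, which the embryo clears at this time, was 1893 to 4347 CPM in control and 545 to 1776 CPM in light 2-cell libraries without overlap, and its part in the differences of Pkm and Aldoa was not tested. Light libraries then fell by 1.79 (SE 0.31, adjusted p = 4.26e-05) to 59.1, 85.8 and 156 CPM at the 4-cell stage, below every light 2-cell library, while in control the difference was -0.63 (SE 0.48, adjusted p = 0.281). The light effect between these stages differed by -1.16 (SE 0.57), which did not pass (adjusted p = 0.257). The control 8-cell libraries held 154, 101, 141 and 119 CPM and the light libraries 7.66, 54.7 and 132 CPM, a difference of -1.44 (SE 0.57, adjusted p = 0.115). In blastocysts Pkm stood at 441, 318 and 251 CPM in control and 413, 499 and 657 CPM in light. The rise from the morula was 2.63 (SE 0.45, adjusted p = 0.000167) in light, and the difference in control, 2.30 (SE 0.77), missed the threshold by limma (adjusted p = 0.0504) and was called in 4 of 10 alternatives, among them DESeq2 (0.0437) and 1 fit over all groups (0.00533). No library overlapped between these stages in either group.

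Lactate dehydrogenase is a tetramer of subunits from Ldha and Ldhb, the former common in glycolytic tissue and the latter in heart and oocytes. Ldhb fell at 2 of the 4 steps between stages in both groups. Control 2-cell libraries held 89.9, 202 and 435 CPM and light ones 113, 190 and 286 CPM, with a difference of -0.26 (SE 0.32, adjusted p = 0.647). By the 4-cell stage it stood at 2.18, 33.9 and 79.6 CPM in control and 15.9, 32.3 and 63.6 CPM in light, below every 2-cell library of its group, and fell by 3.26 (SE 0.64, adjusted p = 0.000262) and by 2.63 (SE 0.36, adjusted p = 1.78e-06). From the 8-cell stage, at 49.4 ± 12.1 (SD, n = 4) and 32.7 ± 12.5 CPM (n = 8), it fell again to the morula, by 3.53 (SE 0.94, adjusted p = 0.0108) in control and by 2.60 (SE 0.60, adjusted p = 0.00503) in light, to 0, 1.75 and 35.6 CPM and 0, 4.89 and 10.6 CPM. The control call at this step was lost by edgeR (0.0811). In blastocysts 2.15, 0.932 and 1.75 CPM remained in control and 0 to 5.80 CPM in light, which is a few reads. By limma no light effect on Ldhb was called at any stage, nor a difference of light effects between adjacent stages.

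Ldha was called in none of the 17 comparisons by limma, and its libraries varied widely within groups. Its control levels were 4.84, 14.0 and 20.8 CPM at the 2-cell stage and 0, 42.4 and 63.7 CPM at the 4-cell stage. In light they were 8.37, 21.9 and 44.0 CPM and 2.78, 19.4 and 150 CPM, and light morulae held 0, 1.49 and 94.0 CPM. It was listed at 0 in 2 of 4 control 8-cell and 8 of 13 control morula libraries. The control 8-cell libraries held 0, 0.743, 0 and 5.40 CPM and the light ones 1.41, 7.93 and 63.1 CPM. They overlapped, and the difference of 2.62 (SE 0.99) did not pass (adjusted p = 0.0995) but was called by DESeq2 (0.0363). Blastocysts held at most 6.44 CPM in control and 8.40 CPM in light.

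The balance of isozymes was also compared within each library, as the log2 ratio of CPM + 1, by two-sided exact permutation tests with adjustment over 15 tests. No ratio differed between light and control after adjustment. The lowest adjusted p was 0.184, shared by the Ldhb to Ldha and Pfkp to Pfkl ratios of 2-cell and 8-cell libraries. The Ldhb to Ldha ratio was 4.21 ± 1.10 (SD, n = 7) in control and 3.07 ± 0.62 (n = 6) in light 2-cell libraries (difference -1.14, exact p = 0.0490). At the 8-cell stage it was 4.75 ± 1.31 (n = 4) and 1.49 ± 1.92 (n = 8), with overlap (difference -3.26, exact p = 0.0182). Between these stages it was 0.69 ± 1.23 (n = 6) in control 4-cell libraries, and it was 1.40 ± 1.92 (n = 13) in control morulae and -0.10 ± 0.99 (n = 3) in control blastocysts. The Pfkp to Pfkl ratio was -0.07 ± 1.71 and -1.80 ± 0.75 at the 2-cell stage (difference -1.72, exact p = 0.0431) and 2.36 ± 2.48 and -0.71 ± 1.97 at the 8-cell stage (difference -3.07, exact p = 0.0424). The Hk1 to Hk2 ratio was 5.36 ± 1.87 (n = 6) in control and 5.62 ± 1.59 (n = 8) in light 4-cell libraries, and -3.71 ± 1.84 (n = 3) and -3.74 ± 1.42 (n = 6) in blastocysts. At the 8-cell stage it was 4.74 ± 1.84 in control and 2.15 ± 2.39 in light (difference -2.60, exact p = 0.0909). In the 4 control 8-cell libraries Pfkl and Hk2 were each listed at 0 in 3 and Ldha in 2. The control ratios of that stage thus rest largely on the added 1 and on the level of the other gene. With 3 against 6 blastocyst libraries the smallest p possible was 0.0119.

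**Figure D4:**
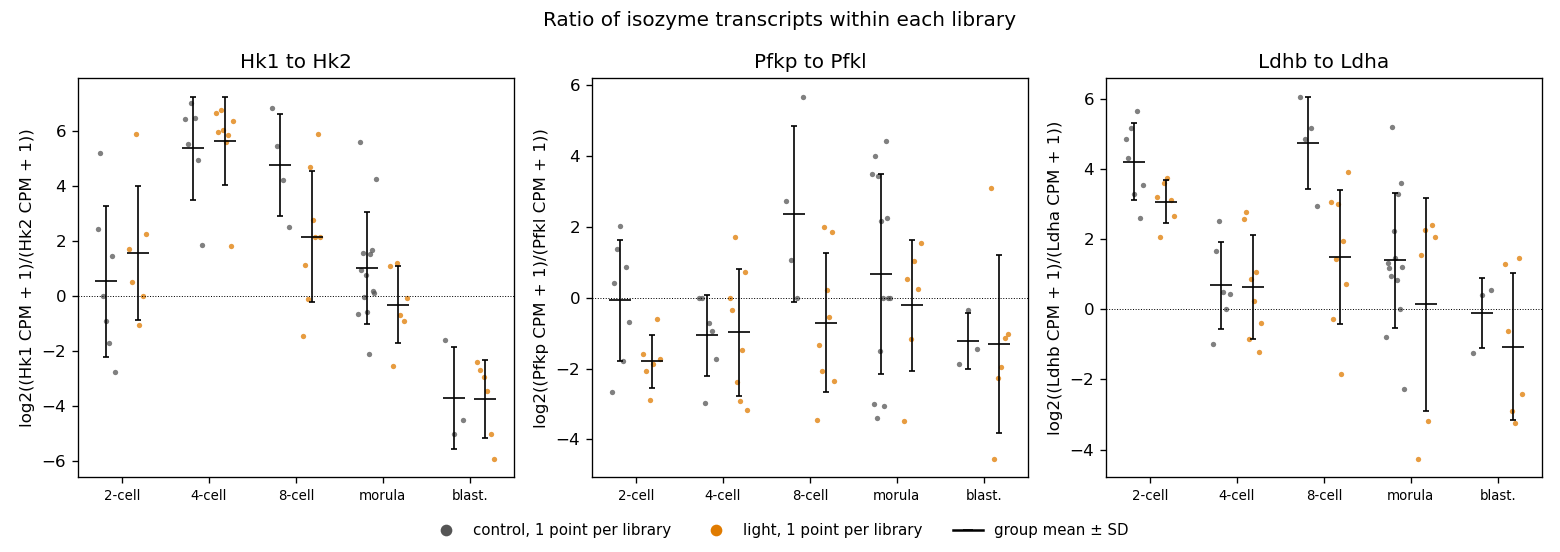
Log2 ratio of CPM + 1 for the pairs Hk1 to Hk2, Pfkp to Pfkl and Ldhb to Ldha in each library by stage, with control in grey, light in orange and the group mean ± SD in black. The Hk1 to Hk2 ratio runs from about 5.36 at the 4-cell stage to -3.71 in blastocysts in control, and the light libraries follow with overlap at every stage.

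The order of the members was read per kilobase of transcript, whereas the ratios above carry no scaling by length and serve to compare groups. In control 2-cell libraries Ldhb was highest (197 ± 102 CPM per kb, SD, n = 7), ahead of Pkm (62.4 ± 25.3) and Gapdh (41.4 ± 17.9), whereas in light Pkm (158 ± 72.5, n = 6) and Ldhb (151 ± 47.1) did not differ beyond their spread. Aldoa led at the 4-cell stage in both groups (165 ± 44.9 and 122 ± 44.8) and in control morulae (235 ± 94.5, n = 13). In blastocysts Aldoa (710 ± 97.3) and Gapdh (539 ± 25.4) led in control, and Gapdh (1143 ± 313) and Aldoa (884 ± 123) in light. With the length of all exons joined in place of the transcript, Ldhb led in light 2-cell libraries and Aldoa in light morulae, and otherwise the same member led.

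The genes whose level over the 10 group means was most like that of Ldhb were Nexn (Pearson r = 0.992), C87436 (0.988) and Jag1 (0.988), among 11375 genes compared. For Ldha they were Acot13 (0.958), Zfp952 (0.958) and Zzz3 (0.949). These are descriptions over 10 points that share their libraries.

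Other genes of glucose use were read from 5 lists. Among 20 other glycolysis enzymes in the table, no gene was called between light and control before the blastocyst, where 2 of 11 tested were higher in light, beside 1.90% of all genes called, Tpi1 (59.2 against 278 CPM, 2.76, SE 0.51, adjusted p = 0.00828) and Eno1 (160 against 492 CPM, 1.67, SE 0.34, adjusted p = 0.0131), a triose isomerase and an enolase. The groups did not overlap for either gene, and the trophectoderm markers given for Hk2 differ between the same libraries. Of the 10 tested pentose phosphate genes, 4 were called at the 2-cell stage, beside 12.0% of all genes, with Taldo1 (2.01, adjusted p = 0.00279), Rpe and Tktl1 higher and G6pdx, whose enzyme opens the pathway, lower (-1.05, adjusted p = 0.0207). Of 15 tested regulators 2 were called at that stage, and of 13 tested carriers 1, both near the same 12.0% of all genes. Among regulators Pfkfb3, which makes the activator of phosphofructokinase, was higher (29.8 against 111 CPM, 2.09, SE 0.55, adjusted p = 0.0104) and the phosphatase Pdp1 lower (-2.37, adjusted p = 0.0142), and among carriers the lactate and pyruvate carrier Slc16a1 was higher (1.19, adjusted p = 0.0261).

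At the 4-cell stage 1 of 13 tested regulators was called, beside 2.15% of all genes, Pdk1, at 0.140 CPM in control and 8.87 CPM in light (2.74, adjusted p = 0.0323). At the 8-cell stage, where Gapdh was lower in light, 8 genes of the lists were called, all higher in light, beside 8.49% of all genes, of which 711 were higher and 539 lower. They were 2 of 10 carriers, 3 of 14 regulators, 1 of 9 pentose phosphate genes and 2 of 6 gluconeogenesis genes, with G6pc3 (3.73, adjusted p = 0.00399), the transketolase Tkt (28.1 against 205 CPM, 3.71, adjusted p = 0.000289) and Fbp2, a fructose bisphosphatase (3.64, adjusted p = 0.00881), showing the largest differences. In morulae no gene of the 5 lists was called. From the morula to the blastocyst other enzymes of the chain rose too, with Pgk1 (4.89, adjusted p = 0.00632) and Pfkm (3.70, adjusted p = 0.00763) in control and Tpi1 (5.09, adjusted p = 3.24e-05) and Eno1 (3.46, adjusted p = 3.31e-05) in light as the largest of 3 of 13 and 3 of 12 other glycolysis enzymes called, beside 13.2% and 13.3% of all genes. In control 5 of 13 other enzymes, 6 of 10 carriers and 7 of 14 regulators were called from the 2-cell to the 4-cell stage. So were 7 of 10 pentose phosphate and 3 of 6 gluconeogenesis genes, beside 47.9% of all genes. The counts in light, in the same order, were 5 of 17, 2 of 12, 4 of 15, 6 of 9 and 5 of 7, beside 35.1%. At the step from the 2-cell to the 4-cell stage the largest falls were those of Pdk1 (-5.79, adjusted p = 2.64e-08) and Bpgm (-5.01, adjusted p = 1.60e-06) in control and of Bpgm (-3.89, adjusted p = 1.78e-05) and Tpi1 (-3.78, adjusted p = 4.11e-05) in light, and the largest rises those of Tkt (4.31) and Fbp2 (3.51) in control and Fbp2 (3.58) and Tkt (2.57) in light. The largest falls at the last step were those of Mpc2 (-1.89) and Tigar (-1.49) in control and of Fbp1 (-2.51) and Slc2a8 (-2.31) in light. From the 8-cell stage to the morula the counts in control, in the order given above, were 0 of 13, 3 of 10, 4 of 14, 2 of 8 and 1 of 5, beside 15.2% of all genes. In light they were 0 of 15, 3 of 11, 5 of 15, 0 of 9 and 2 of 6, beside 10.6%. At this step Fbp2 (6.05) and the glucose carrier Slc2a8 (4.23) rose most in control and Pfkfb4 (3.22) and the glucose carrier Slc2a1 (3.14) in light. Pfkfb3 fell most at that step in both groups (-4.71 in control and -3.29 in light), followed by Slc2a4 (-2.89) in control and G6pc3 (-2.74) in light. Between the 4-cell and 8-cell stages 1 gene of the lists was called in each group, Tkt in control (-2.91) and Fbp2 in light (1.29). Beside these stood 1.86% and 2.39% of all genes.

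Some reads may belong to neighbours or copies of the members. Pkm overlaps Gm49759 on the same strand, which counting by strand cannot separate. Hk1, Hk2, Gpi1, Pfkp, Aldoa and Gapdh overlap a gene of the opposite strand in GENCODE M21, and whether the counting used strand is not given in the sources used here. Marker sums of other cell types were low, at up to 46.7 CPM for cumulus and granulosa cells, 39.4 CPM for sperm and 20.3 CPM for red blood cells in any library.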

How the data were processed

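Per the submitters' processing notes, reads were aligned with HISAT2 to mm9 and counted per gene with HTSeq 0.9.1. The authors deposited a signal value per gene and library, in which each value is the gene's reads divided by a factor of the library. Whole reads were recovered from the steps of these values (at least 99.9% of values within 0.01 of a whole read in each library, 13 genes not whole in some library). The study's methods name RPKM, but the values carry no scaling by gene length.

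From the recovered reads, CPM was computed as counts per 1000000 reads outside the ribosomal RNA rows CT010467.1 and Gm42418. Genes above 1 CPM in at least 3 of the libraries compared were tested by limma 3.58.1 in R 4.3.3 on log2(CPM + 1), with Benjamini-Hochberg adjustment over all genes tested, and called at an adjusted p under 0.05 and a fold of at least 2. The 17 comparisons were light against control at each stage, adjacent stages within each group, and the difference of light effects between adjacent stages. A fold on this scale understates the change of low genes. Isozyme ratios were compared by exact permutation tests in Python 3.11.15 with scipy 1.17.1. edgeR 4.0.16 and DESeq2 1.42.0 on the recovered reads, other scalings, filters and pseudocounts, a replicate block and leaving out each library were alternatives. The limma test was also run on simulated counts with changes set in well-expressed genes only. That run does not cover members at a few reads, differences in library making or shared embryos.

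The 10 members and the lists were chosen with earlier results of these data known. From the lists, up to 3 of the largest called differences per direction between light and control, and up to 2 per direction between stages, were to be named. Symbols were matched to GENCODE M21 (26329, or 99.7%) and promoters to RefSeq on GRCm38.p6 (10 of 10 members). Since that build is not mm9, coordinates are those of RefSeq only. Samples were grouped by the labels, and p-values measure the spread between libraries.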

Additional observations from a re-analysis of the deposited data

Results flagged for a closer look

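A single library stood far from the others of its group in 7 of 80 sets of a member and a group of 4 to 10 libraries, by Dixon's test at the 95% level, which chance flags in about 1 of 20 sets. Hk2 was 13.7 CPM in control 4-cell library 6 (0 to 1.24 CPM in the others) and 23.2 CPM in light 4-cell library 13 (0 to 1.32 CPM in the others). In control 8-cell libraries, Hk2 was 1.35 CPM in library 4 and Pfkl 5.94 CPM in library 2, with the others at 0. Where the other 3 libraries are at 0, any read meets this test, and these values are 2 and 8 reads. Gpi1 was 165 CPM in light blastocyst library 29, below the 251 to 316 CPM of the others. Aldoa was 2.82 CPM in control 2-cell library 8, below the 18.6 to 54.6 CPM of the others, and its light effect at the 2-cell stage was 1.20 (adjusted p = 0.0847) without it. Ldhb was 0 CPM in light morula library 1 and 3.76 to 10.6 CPM in the others.

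The light effect differed between adjacent stages for 1 of 10 members in each of 3 tests by the interaction term of limma. The difference was -2.08 for Aldoa (4-cell against 2-cell, adjusted p = 0.0463), 4.83 for Gapdh (morula against 8-cell, adjusted p = 0.00732) and 3.70 for Hk1 (blastocyst against morula, adjusted p = 0.0436). Beside these stood 4.06%, 2.41% and 1.50% of all genes. The Aldoa call was lost without any of 19 of 27 libraries and the Hk1 call without any of 17 of 28. The Gapdh call was kept without each library.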

How the results depend on the processing

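Of 28 member calls, 20 were made in every alternative other than the replicate block and 22 without each library in turn, and no call changed its direction in these settings. Of 32 counts and ratios, 20 kept the same reading in every alternative, the 15 ratios among them. For a count this means a value close to that of the main analysis. For a ratio it means only that it did not pass with a pseudocount of 0.1 or on the deposited scale. The sign was not required to hold. With 1 library left out, the Hk1 to Hk2 difference at the 4-cell stage ran from -0.45 to 0.80. At the 2-cell stage 2 members were called between light and control, and 1 on the deposited scale, with a pseudocount of 0.1, with no filter on low values and in 1 fit over all 10 groups. With the replicate block neither of these was called (Aldoa 0.558, Pkm 0.0629), and the count of 1 is Ldhb, lower in light (-1.34, adjusted p = 0.0441). Only 3 numbers are shared at this stage, so the block fit rests on 3 pairs and cannot decide these calls. At the 8-cell stage 1 was called, 2 in 1 fit and by edgeR and 3 by DESeq2, and in morulae 0, 2 in 1 fit and by DESeq2 and 1 by edgeR. Between the 4-cell and 8-cell stages 0 were called, and 1 in control and 3 in light on the deposited scale, where the median of all genes lay at -0.54 and -0.43 instead of -0.01 and -0.06. For the difference of light effects, the count of 1 at the 4-cell against the 2-cell stage was 0 on the deposited scale, with median ratio scaling, a pseudocount of 0.1, no filter and without control 4-cell libraries 1 and 2, an alternative chosen after seeing the data. The count of 1 for the morula against the 8-cell stage was 2 by edgeR and DESeq2, and that for the blastocyst against the morula was 0 on the deposited scale, with a pseudocount of 0.1 and with a mean CPM above 5. The causes were not tested.

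Leaving out 1 library gave counts between light and control of 1 to 2 (2-cell), 0 to 2 (8-cell), 0 to 1 (morula) and 0 to 1 (blastocyst), of 0 to 1 for light 8-cell against 4-cell libraries, and 0 to 1, 1 to 2 and 0 to 1 for the differences of light effects at the 4-cell, morula and blastocyst stages. Same-numbered libraries did not deviate together (correlations of -0.067 to 0.062), so the numbers are names. With the replicate block 0 members were called in control from the 8-cell stage to the morula (3 without it) and from the morula to the blastocyst (4). In light 0 were called from the 2-cell to the 4-cell stage (5 without it) and from the 8-cell stage to the morula (2). Only 2 numbers are shared at each of these control steps and at the first light step, and 4 at the last. The block takes up every library whose number is not shared, so these fits rest on a few pairs. The loss of calls therefore cannot show that the calls depend on pairing. No paired analysis was possible between light and control at the 8-cell and blastocyst stages because fewer than 2 numbers are shared. In blastocysts, the deposited scale turned the differences of Gpi1, Aldoa and Pkm to -0.39, -0.46 and -0.14, none called. Levels of a few CPM rest on a few reads, as for Hk2 up to the 4-cell stage and in control 8-cell libraries.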
